A study of Homo sapiens with 9 samples.

Results

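The genes described here are the transcriptional co-activators YAP1 and WWTR1 (TAZ), the DNA-binding factors TEAD1, TEAD3 and TEAD4, and 5 genes known as direct targets of their complex, CYR61 (now CCN1), CTGF (now CCN2), ANKRD1, AMOTL2 and LATS2. They were chosen by name, and all 10 were found among the 29972 genes of the deposited expression table. All 10 passed the filter on low values and were tested. Their levels were compared in the human cell line H2030, established from a non-small cell lung cancer, in 3 groups of 3 libraries. Every group was transfected with siRNA at 20 nmol/L using the same lipid reagent. The control group received a pool with no target. The siMENA11a group received a mix of 3 duplexes placed inside exon 11a of ENAH, the gene of the actin regulator hMENA. The siMENA group received a commercial pool that covers all hMENA isoforms and comes from another reagent line than the control pool. The labels name no separate cultures within a group and no time after transfection, so p-values measure the spread between these libraries only, which may be technical. Cells were profiled in bulk, and fewer cells of a kind cannot be told apart from less RNA per cell.

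YAP1 and TAZ do not bind DNA themselves. When the Hippo kinases MST1/2 and LATS1/2 are active, LATS phosphorylates both co-activators and they stay in the cytoplasm or are degraded. When the kinases are inactive, YAP1 and TAZ enter the nucleus, bind TEAD factors and switch on target genes. Tension in the actin cytoskeleton and cell spreading favour nuclear entry. Several targets, AMOTL2 and LATS2 among them, feed back to restrain YAP1. These steps act on proteins, and the libraries measured RNA only. Exon 11a is found in an epithelial isoform of hMENA, and the comparison of the 2 siRNAs sets its targeting against that of every isoform.

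TEAD factors recognise the core CATTCC, which reads GGAATG on the other strand. RefSeq promoters (GRCh38.p14, 250 bases before to 50 after the gene start, 300 in all) were found for 7 of the 10 genes, and CYR61, TEAD1 and TEAD4 were not among them. Of the 7, 5 held the core on either strand in at least 1 listed promoter (YAP1, CTGF, ANKRD1, AMOTL2 and LATS2). Counted per promoter rather than per gene, 14.0% of 35116 promoters of that length held it. AMOTL2 held it in 1 of its 2 listed promoters, and WWTR1, also with 2, in neither. The promoters of CTGF and ANKRD1 are shown because both held the core more than once, as did 1.37% of all promoters, while the RNA of the 2 genes moved in opposite directions in these libraries. Capitals mark the core, and both sequences run 5′ to 3′ along the minus-strand gene.
CTGF, chr6:131951323-131951622: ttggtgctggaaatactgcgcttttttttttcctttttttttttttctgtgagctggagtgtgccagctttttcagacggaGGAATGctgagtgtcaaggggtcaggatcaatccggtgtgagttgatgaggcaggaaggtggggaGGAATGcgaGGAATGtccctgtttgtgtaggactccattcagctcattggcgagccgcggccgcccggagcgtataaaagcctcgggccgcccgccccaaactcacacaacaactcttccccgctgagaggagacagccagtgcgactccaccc
ANKRD1, chr10:90921038-90921337: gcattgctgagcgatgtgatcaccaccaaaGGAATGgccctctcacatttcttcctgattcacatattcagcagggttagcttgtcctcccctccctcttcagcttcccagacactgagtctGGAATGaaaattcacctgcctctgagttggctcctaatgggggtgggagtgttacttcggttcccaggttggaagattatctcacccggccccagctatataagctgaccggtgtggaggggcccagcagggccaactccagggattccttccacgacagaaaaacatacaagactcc
In CTGF the 3 cores began at positions -169, -104 and -95 from the start site, and in ANKRD1 the 2 cores began at -220 and -128. All 5 stood as GGAATG along the gene. A match describes the letters and does not show that a factor was bound.

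Correlations of log2 values over all tested genes ran from 0.978 to 0.985 between libraries of a group and from 0.951 to 0.971 between groups, and no library stood apart. The lung epithelial identity of the line was only partly visible in its markers. Of 6 epithelial markers, 4 reached a mean of 1 TPM (transcripts per 1000000), while CDH1 and KRT19 lay below that level. None of the 6 lung lineage markers did, with SFTPC and SCGB1A1 listed at 0. Of the leukocyte markers, CD3E was listed at 0 and PTPRC and LYZ lay below 1 TPM, while CD68 and CD14 reached it. CD14 had means of 1.26, 1.85 and 0.817 in control, siMENA11a and siMENA, and CD68 of 98.9, 127 and 44.9. Control libraries had a summed leukocyte level of 97.4 to 105, siMENA11a libraries 125 to 131 and siMENA libraries 41.1 to 49.5, and nearly all of it was CD68, which tumour cells also express. Of the fibroblast markers, 2 of 7 reached 1 TPM (COL1A1 and COL3A1), with sums of 8.86 to 9.44, 7.82 to 8.24 and 15.4 to 17.3 in the same order. No endothelial marker did, with sums of 0.513 to 0.672, 0.550 to 0.587 and 0.973 to 1.18 and TEK listed at 0. The part of other cells in the results was not tested. ENAH itself stood at 43.6, 43.2 and 44.7 in the control libraries, 46.7, 47.5 and 48.7 with siMENA11a, and 6.89, 7.30 and 7.48 with siMENA, in TPM scaled as described next. The siMENA libraries were far lower (log2 fold change -2.52 ± 0.038). The siMENA11a libraries were slightly higher than control (0.12 ± 0.038, limma adjusted p = 0.0247). That call ended without control 1, control 2, siMENA11a 2 or siMENA11a 3, and the value was -0.014 in TPM as deposited (adjusted p = 0.863). The summed value of the gene cannot show the loss of exon 11a. Below, the word knockdown names the siRNA given, and for siMENA11a no loss of its target is shown here.

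Values below are scaled TPM, that is, TPM divided by a size factor for each library. TPM is given per transcript length, so levels of different genes can be set side by side. In control, CYR61 was the most abundant of the 10 at 327 ± 4.56 scaled TPM (SD, n = 3), followed by CTGF at 194 ± 12.4. AMOTL2 (54.7 ± 0.544), YAP1 (50.1 ± 0.784), TEAD1 (40.1 ± 0.747), ANKRD1 (35.6 ± 1.92) and WWTR1 (31.6 ± 0.917) came next. TEAD4 (21.3 ± 1.45), LATS2 (10.9 ± 0.408) and TEAD3 (5.94 ± 0.235) were lowest. No neighbours in that order overlapped between control libraries. Under both knockdowns CTGF took the first place and CYR61 the second. WWTR1 moved above TEAD1 and ANKRD1 under siMENA11a. Under siMENA it lay at the level of TEAD4, the only neighbours in any group whose libraries overlapped.

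**Figure D1:**
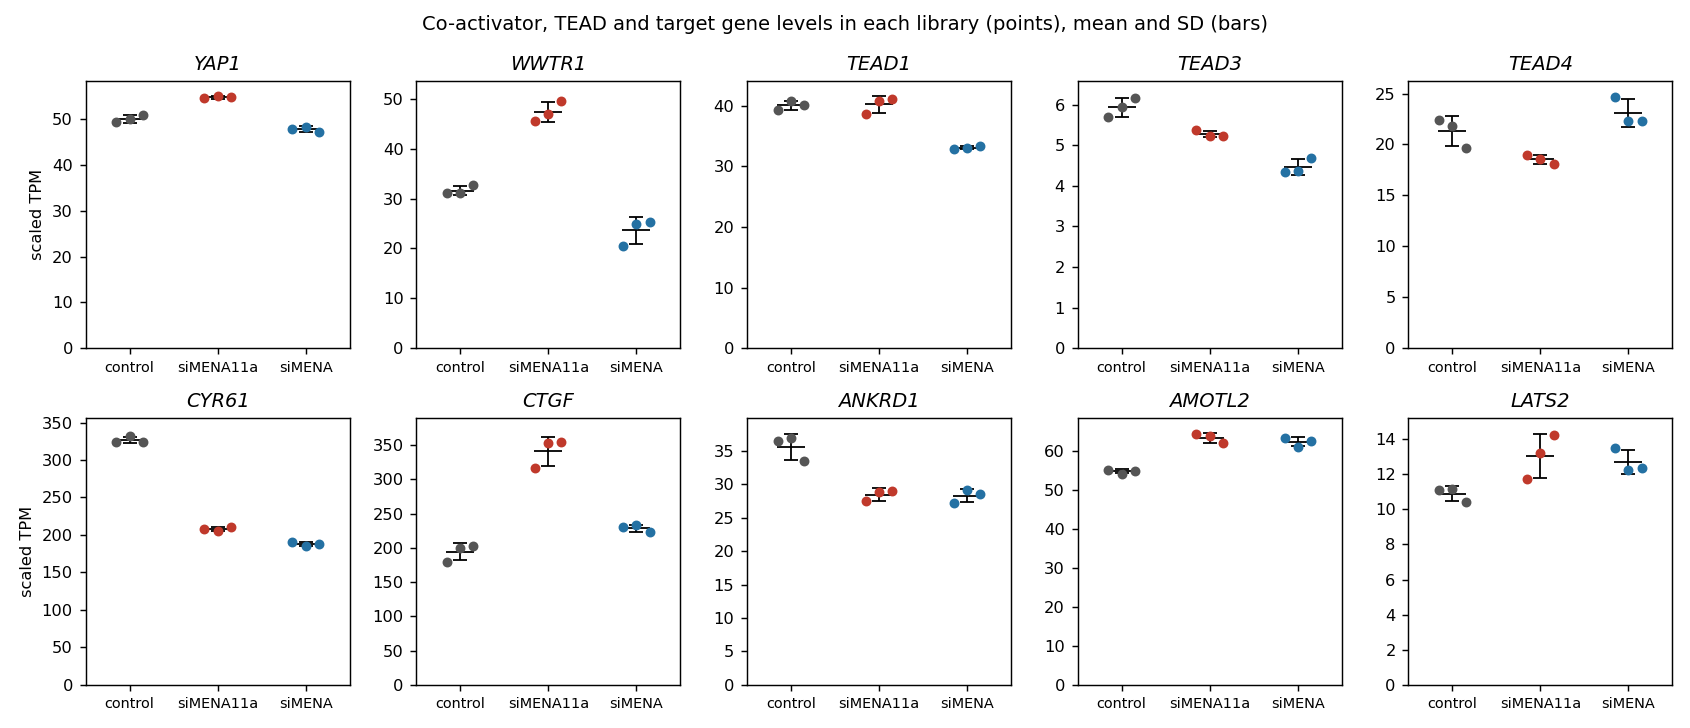
Scaled TPM of each of the 10 genes in the 9 libraries, with points for libraries, bars for the mean and SD of 3 libraries, and every vertical axis starting at 0. CYR61 and ANKRD1 lie below control in all 6 knockdown libraries, CTGF, AMOTL2 and LATS2 lie above it, and WWTR1 lies above control in siMENA11a and below it in siMENA.

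The co-activators differed from each other in how much they moved, with TAZ RNA changing far more than YAP1 RNA. WWTR1, which encodes TAZ, stood at 31.1, 31.1 and 32.7 scaled TPM in control libraries 1, 2 and 3, at 45.7, 46.9 and 49.6 in siMENA11a, and at 20.6, 25.0 and 25.4 in siMENA. No library of one group reached the range of another. WWTR1 rose by 0.58 ± 0.073 on the log2 scale under siMENA11a (limma adjusted p = 0.000133). It fell by 0.42 ± 0.073 with siMENA (adjusted p = 0.00121), and the direct comparison of siMENA11a with siMENA gave 0.99 ± 0.073 (adjusted p = 2.69e-06). That last difference was larger than for 94.8% of all tested genes.

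YAP1 stood at 49.3, 50.02 and 50.9 scaled TPM in control, 54.5, 55.2 and 54.8 in siMENA11a, and 47.9, 48.4 and 47.1 in siMENA. The siMENA11a libraries lay above control and the siMENA libraries below. Its log2 fold changes were 0.13 ± 0.027 (adjusted p = 0.00255) and -0.065 ± 0.027 (adjusted p = 0.0711), and 0.20 ± 0.027 between the knockdowns (adjusted p = 0.000172). The YAP1 differences rest on the scaling: in TPM as deposited they were -0.0018, 0.019 and -0.021 (adjusted p = 0.979, 0.767 and 0.725), and after rescaling without small and structured RNAs the siMENA value was 0.054. The ratio of WWTR1 to YAP1 within a library needs no scaling. It was 0.631 ± 0.010 in control, 0.864 ± 0.036 in siMENA11a and 0.495 ± 0.058 in siMENA, with no overlap between groups. With 3 libraries against 3, an exact two-sided permutation test cannot go below p = 0.1, so ratios carry no test here.

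Of the DNA-binding partners, TEAD1 and TEAD3 were lower under siMENA, and TEAD4 was lower under siMENA11a. TEAD1 stood at 39.3, 40.8 and 40.1 scaled TPM in control, 38.7, 40.8 and 41.1 in siMENA11a, and 32.9, 33.0 and 33.4 in siMENA. Only siMENA stood apart. TEAD1 fell by 0.27 ± 0.033 on the log2 scale there (adjusted p = 0.000125), while siMENA11a against control gave 0.0046 with a 95% interval of -0.069 to 0.078 (adjusted p = 0.917). Between the knockdowns TEAD1 was higher in siMENA11a by 0.28 ± 0.033 (adjusted p = 6.48e-05, but 0.061 and adjusted p = 0.395 in TPM as deposited).

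TEAD3, the least abundant TEAD, stood at 5.70, 5.94 and 6.17 scaled TPM in control, 5.37, 5.23 and 5.23 in siMENA11a, and 4.35, 4.36 and 4.69 in siMENA. The 3 groups did not overlap and descended in that order. It fell by 0.37 ± 0.054 under siMENA (adjusted p = 0.000374). Under siMENA11a it was lower by 0.15 ± 0.054 on the log2 scale (-0.15, adjusted p = 0.0345), a call kept in 9 of 19 alternatives. The value was -0.084 after rescaling without small RNAs (adjusted p = 0.293), and the call ended without control 2 (adjusted p = 0.0755), control 3 (0.102), or siMENA11a 1 (0.0568), 2 (0.0933) or 3 (0.0888), and with the replicate number as a block (0.0522). The knockdowns differed by 0.22 ± 0.054 (adjusted p = 0.00612), or by 0.021 in TPM as deposited (adjusted p = 0.807).

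TEAD4 stood at 22.4, 21.8 and 19.7 scaled TPM in control, 19.0, 18.6 and 18.1 in siMENA11a, and 24.7, 22.3 and 22.3 in siMENA. The siMENA11a libraries were the lowest, and control and siMENA overlapped. Its log2 fold changes were -0.19 ± 0.057 under siMENA11a (adjusted p = 0.0164), 0.11 ± 0.057 under siMENA (adjusted p = 0.133) and -0.31 ± 0.057 between the knockdowns (adjusted p = 0.00122). The siMENA11a call ended without control 1 (adjusted p = 0.0628), control 2 (0.0546) or siMENA11a 3 (0.0582), and after rescaling without small RNAs (-0.12, 0.119), while the difference between the knockdowns was called in all 19 alternatives. Under siMENA TEAD4 was called higher in TPM as deposited (0.20, adjusted p = 0.0263) and after that rescaling (0.23, adjusted p = 0.00717).

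TEAD2 is not among the chosen genes but completes the family. TEAD2 had a mean of 28.9 ± 1.62 scaled TPM across control libraries, 46.5 ± 2.30 with siMENA11a and 35.8 ± 0.80 with siMENA. It rose by 0.68 ± 0.049 and 0.31 ± 0.049 on the log2 scale (adjusted p = 3.69e-06 and 0.000685). As a share of the summed TEAD1 to TEAD4 TPM, TEAD2 was 30.0% ± 1.49 in control, 42.1% ± 0.894 in siMENA11a and 37.1% ± 0.121 in siMENA. The share of TEAD1 was 41.6% ± 0.255, 36.4% ± 0.190 and 34.3% ± 0.831, so TEAD2 replaced TEAD1 as the leading TEAD transcript in all 6 knockdown libraries.

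**Figure D2:**
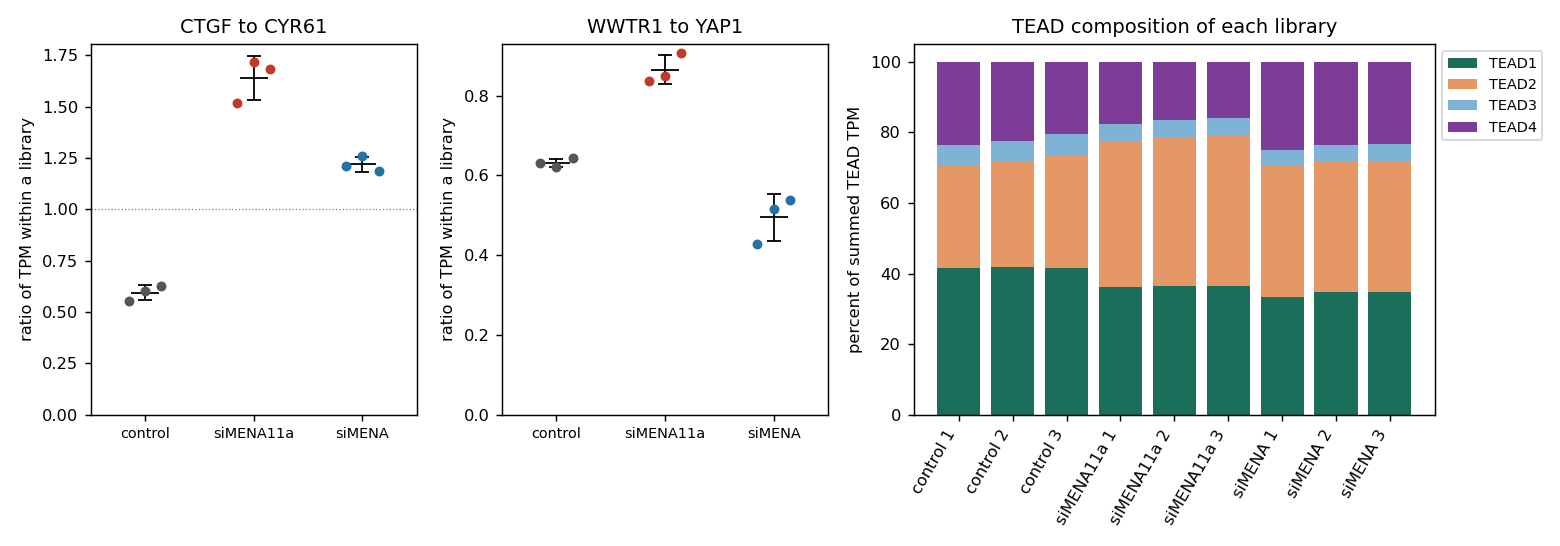
Within-library ratios of CTGF to CYR61 and of WWTR1 to YAP1 (left and middle, points for libraries, bars for mean and SD of 3 libraries, dotted line at a ratio of 1) and the percent of summed TEAD TPM held by each TEAD gene in each library (right). The ratio of CTGF to CYR61 lies below 1 in control and above 1 in both knockdowns, and the TEAD2 share is largest in siMENA11a at 42.1%.

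The best known target genes did not move together. CYR61, a secreted matrix-associated signalling protein, stood at 324, 332 and 324 scaled TPM in control, 208, 206 and 210 in siMENA11a, and 191, 185 and 188 in siMENA. Each knockdown library lay far below every control library. CYR61 fell by 0.65 ± 0.027 on the log2 scale under siMENA11a (adjusted p = 1.42e-07) and by 0.80 ± 0.027 under siMENA (adjusted p = 8.3e-08). The fall under siMENA was larger than the change of 95.7% of tested genes. Between the knockdowns the difference was 0.15 ± 0.027 (adjusted p = 0.00105), which turned to -0.069 in TPM as deposited (adjusted p = 0.238) and was 0.024 after quantile normalisation (adjusted p = 0.612).

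CTGF, a relative of CYR61 of the same secreted family, went the other way. It stood at 179.9, 199.9 and 203 scaled TPM in control, 316, 353 and 354 in siMENA11a, and 231, 233 and 223 in siMENA. All 3 groups were separate, with siMENA11a highest. CTGF rose by 0.81 ± 0.056 on the log2 scale under siMENA11a (adjusted p = 2.94e-06) and by 0.24 ± 0.056 under siMENA (adjusted p = 0.00646). The difference of 0.57 ± 0.056 between the knockdowns was called as well (adjusted p = 1.76e-05). The CTGF to CYR61 ratio was 0.555, 0.602 and 0.625 in control, 1.52, 1.72 and 1.68 in siMENA11a, and 1.21, 1.26 and 1.19 in siMENA. The ratio is free of scaling, and the order of the 2 transcripts was inverted in all 6 knockdown libraries.

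ANKRD1, an ankyrin repeat protein of the nucleus and of muscle sarcomeres, followed CYR61 in direction. It stood at 36.5, 36.9 and 33.4 scaled TPM in control, 27.4, 28.9 and 29.1 in siMENA11a, and 27.2, 29.2 and 28.5 in siMENA. Both knockdowns lay below control and overlapped each other. ANKRD1 fell by 0.32 ± 0.047 (adjusted p = 0.00034) and by 0.33 ± 0.047 (adjusted p = 0.000368) on the log2 scale. The knockdowns differed by 0.0079 with a 95% interval of -0.098 to 0.11, though in TPM as deposited ANKRD1 was lower in siMENA11a than in siMENA (-0.21, adjusted p = 0.0242).

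The 2 feedback inhibitors among the targets were higher than control after either siRNA. AMOTL2, an angiomotin family protein that binds YAP1 and retains it outside the nucleus, stood at 55.1, 54.1 and 54.9 scaled TPM in control, 64.4, 63.8 and 62.0 in siMENA11a, and 63.4, 61.0 and 62.4 in siMENA. The control libraries were lowest and the knockdowns overlapped. AMOTL2 rose by 0.21 ± 0.029 (adjusted p = 0.000207) and by 0.18 ± 0.029 (adjusted p = 0.000581) on the log2 scale. In TPM as deposited the siMENA11a difference was 0.078 (adjusted p = 0.129), and AMOTL2 was then lower in siMENA11a than in siMENA (-0.19, adjusted p = 0.00186). As scaled, the knockdowns differed by 0.026 with a 95% interval of -0.039 to 0.090.

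LATS2, the kinase that phosphorylates YAP1 and TAZ, stood at 11.1, 11.2 and 10.4 scaled TPM in control, 11.7, 13.2 and 14.2 in siMENA11a, and 13.5, 12.2 and 12.4 in siMENA. Control was lowest, and the siMENA11a libraries were spread widest. LATS2 rose by 0.25 ± 0.070 under siMENA11a (adjusted p = 0.0136, but 0.12 and adjusted p = 0.304 in TPM as deposited). It was higher by 0.21 ± 0.070 under siMENA (adjusted p = 0.031). That second call ended without control 1 (adjusted p = 0.0557), control 3 (0.093), siMENA 1 (0.106) or siMENA 3 (0.0504), and with the replicate number as a block (0.0595). The knockdowns differed by 0.036 with a 95% interval of -0.12 to 0.19.

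**Figure D3:**
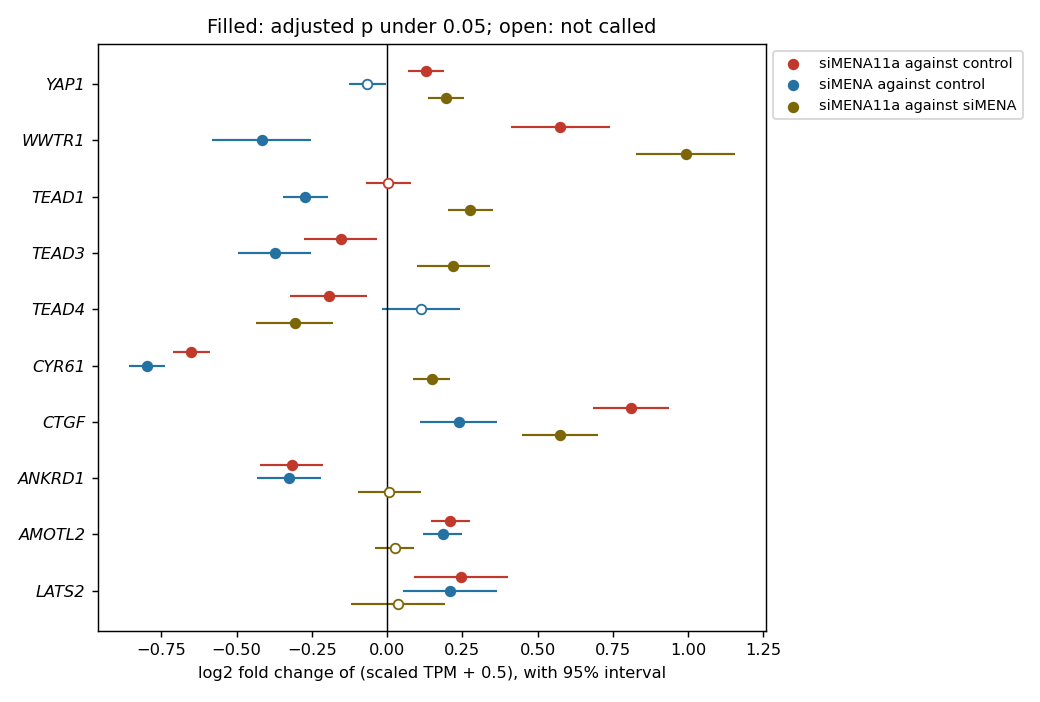
Log2 fold changes of the 10 genes in the 3 comparisons with 95% intervals, filled where the adjusted p is under 0.05 and open where it is not. CYR61 lies at -0.65 and -0.80 and CTGF at 0.81 and 0.24 against control, while ANKRD1, AMOTL2 and LATS2 lie near 0 between the knockdowns.

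Counted together, 9 of the 10 passed the test with siMENA11a, 5 higher (YAP1, WWTR1, CTGF, AMOTL2 and LATS2) and 4 lower (TEAD3, TEAD4, CYR61 and ANKRD1). The background is wide, with 55.6% of 13498 tested genes called against control there, 27.9% higher and 27.7% lower. The libraries of the 2 groups did not overlap for 9 of the 10, as for 62.9% of tested genes. For siMENA against control 8 were called, 3 higher (CTGF, AMOTL2 and LATS2) and 5 lower (WWTR1, TEAD1, TEAD3, CYR61 and ANKRD1), against 49.4% of tested genes, 23.7% higher and 25.8% lower. In that comparison 9 of the 10 genes had control and knockdown libraries that did not overlap, as 57.6% of tested genes did. Between the knockdowns 7 were called, 6 higher in siMENA11a and TEAD4 lower, against 58.7%, 29.5% higher and 29.2% lower, and 7 did not overlap, as 65.1% of tested genes did. Both knockdowns are set against the same control libraries, so their columns are not independent. Among tested genes with a mean of at least 5 scaled TPM, a filter all 10 pass, a separate fit called 65.0%, 59.0% and 68.6% in the same order, and 8, 8 and 7 of the 10. The median absolute log2 fold change of the 10 was 0.23, 0.25 and 0.21, beside 0.23, 0.20 and 0.25 over all tested genes. TPM as deposited gave 2 higher and 4 lower, 4 higher and 5 lower, and 2 higher and 3 lower. Rescaling without small RNAs gave 5 higher and 2 lower for siMENA11a, and leaving out control 2 or siMENA11a 3 also left 2 lower. These scalings shift all genes: of 13476 genes tested in TPM as deposited, 1965 were higher and 4904 lower for siMENA11a, 3979 and 2300 for siMENA, and 2030 and 6321 between the knockdowns. Of 14647 tested after rescaling, 5012 were higher and 2910 lower for siMENA11a, and 5215 and 2316 for siMENA.

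Most further targets of YAP1, TAZ and TEAD were lower under siMENA. Of 30 listed genes 29 were tested. Under siMENA 24 fell, 2 rose and 3 were not called (median log2 fold change -0.48, beside 0.0076 over all tested genes, of which 25.8% were lower and 23.7% higher). The falls included CCDC80 (-1.45 ± 0.083), a secreted matrix protein, the growth factor TGFB2 (-1.34 ± 0.039), the receptor tyrosine kinase AXL (-1.30 ± 0.037), the transmembrane protein CRIM1 (-0.95 ± 0.033) and the matrix protein THBS1 (-0.88 ± 0.052). The adjusted p-values of these 5 ran from 3.72e-08 to 1.4e-06. The 2 that rose were the EGF receptor ligand AREG (0.60) and the transcription factor MYC (0.46), named after their values were seen. Some falls were small, the smallest that of ARHGAP29 (-0.10 ± 0.038, adjusted p = 0.0467). The count depends on the scaling for such genes. Under siMENA the median log2 fold change over all genes was 0.086 in TPM as deposited and 0.12 after rescaling without small RNAs.

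Under siMENA11a the same list was mixed, with 16 lower, 6 higher and 7 not called (median -0.16, beside 0.015 over all tested genes, of which 27.7% were lower and 27.9% higher). TPM as deposited gave 18 lower and 3 higher, and rescaling without small RNAs 13 lower and 8 higher, settings in which all genes shift the same way, as given above. NT5E, which encodes the adenosine-producing enzyme CD73 (-1.96 ± 0.069), THBS1 (-1.92 ± 0.052), the activin subunit INHBA (-1.16 ± 0.085), TGFB2 (-0.51 ± 0.039) and the Arf regulator ASAP1 (-0.35 ± 0.030) fell. AXL had a mean of 87.6 ± 1.49 scaled TPM across control libraries, 105 ± 2.15 with siMENA11a and 35.2 ± 1.62 with siMENA. Its rise of 0.26 under siMENA11a was 0.12 in TPM as deposited (adjusted p = 0.104).

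Set directly against siMENA, siMENA11a was higher for 15 of these targets and lower for 7 (median 0.19, 11 higher and 10 lower in TPM as deposited), where 29.5% of all tested genes were higher and 29.2% lower. AXL (1.56 ± 0.037, adjusted p = 5.5e-09), CCDC80 (1.36 ± 0.083), TGFB2 (0.83 ± 0.039) and CRIM1 (0.64 ± 0.033) were higher and THBS1 (-1.04 ± 0.052) was lower. The list was drawn up from general knowledge of the pathway, but with earlier results of these data known. AJUBA, AMOTL1, PTPN14 and WWC1 also stand in the list of regulators that follows.

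**Figure D4:**
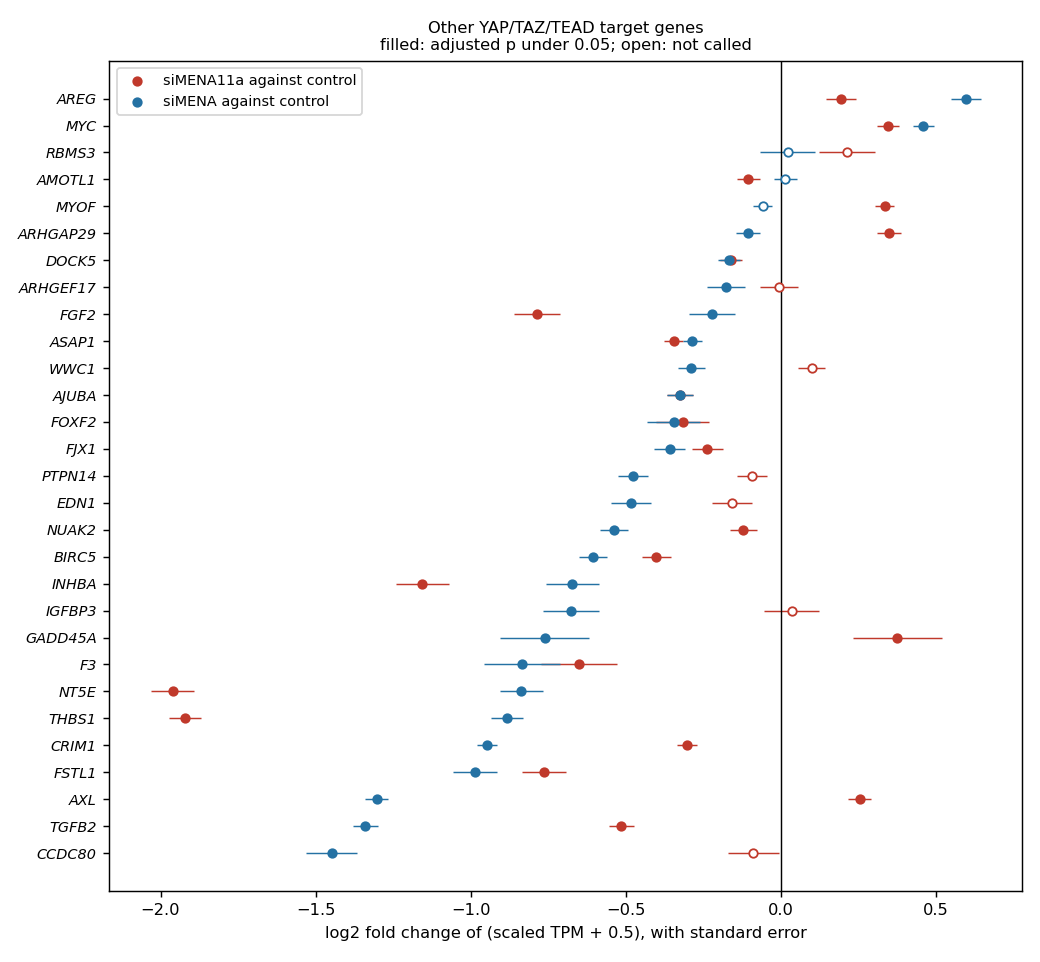
Log2 fold changes against control of the 29 tested further target genes, with standard errors, ordered by the siMENA value, filled where the adjusted p is under 0.05. Under siMENA 24 genes fell and 2 rose, while the siMENA11a values lie on both sides of 0 with NT5E and THBS1 farthest down.

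Among upstream Hippo components merlin RNA was lower under siMENA. Of 40 listed kinases, scaffolds and regulators 36 were tested, all below without the 10 genes above. Under siMENA 12 fell and 10 rose, with 14 not called (median -0.035), or 11 lower and 15 higher after rescaling without small RNAs. Over all tested genes 25.8% were lower and 23.7% higher, not far below the shares of the list. FRMD6 (-1.01 ± 0.055), a FERM protein upstream of the kinases, NF2 (-0.996 ± 0.036), which encodes the tumour suppressor merlin, WWC2 (-0.82 ± 0.053), a relative of KIBRA, and the LATS co-activator MOB1A (-0.61 ± 0.034) fell. VGLL4, which competes with YAP1 for TEAD binding, rose by 0.75 ± 0.050. NF2 stood at 58.3, 60.7 and 56.2 scaled TPM in control, 53.2, 52.7 and 50.7 in siMENA11a, and 28.4, 29.1 and 29.5 in siMENA. All siMENA libraries lay far below the other 6 (adjusted p = 1.28e-07 against control).

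Under siMENA11a 14 of the 36 fell and 11 rose (median -0.029), or 18 lower and 6 higher in TPM as deposited and 10 lower and 16 higher after rescaling. The shares over all tested genes were 27.7% lower and 27.9% higher, and the shift with the scaling follows that of all genes given above. VGLL4 had a mean of 12.6 ± 0.467 scaled TPM across control libraries, 25.1 ± 1.28 with siMENA11a and 21.5 ± 0.928 with siMENA. Its rise of 0.97 ± 0.050 under siMENA11a (adjusted p = 4.58e-07) came with that of TEAD2 given above. DLG5 (-0.53 ± 0.039), a polarity scaffold, STRN3 (-0.52 ± 0.043), a subunit of the STRIPAK phosphatase complex, and the kinase MAP4K4 (-0.40 ± 0.037), which can activate LATS, fell. FRMD6 (-0.60 ± 0.055) and NF2 (-0.16 ± 0.036), named above for siMENA, were called lower here too. The NF2 call ended after rescaling without small RNAs (-0.079, adjusted p = 0.0804). Against siMENA, siMENA11a was higher for 18 and lower for 11 (median 0.20, 11 higher and 15 lower in TPM as deposited), against the same 29.5% and 29.2%. NF2 (0.84 ± 0.036), WWC2 (0.87 ± 0.053), MOB1A (0.73 ± 0.034) and SAV1 (0.53 ± 0.043), the scaffold of the MST kinases, were higher and DLG5 (-0.64 ± 0.039) was lower, with adjusted p-values from 1.09e-07 to 4.9e-06.

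**Figure D5:**
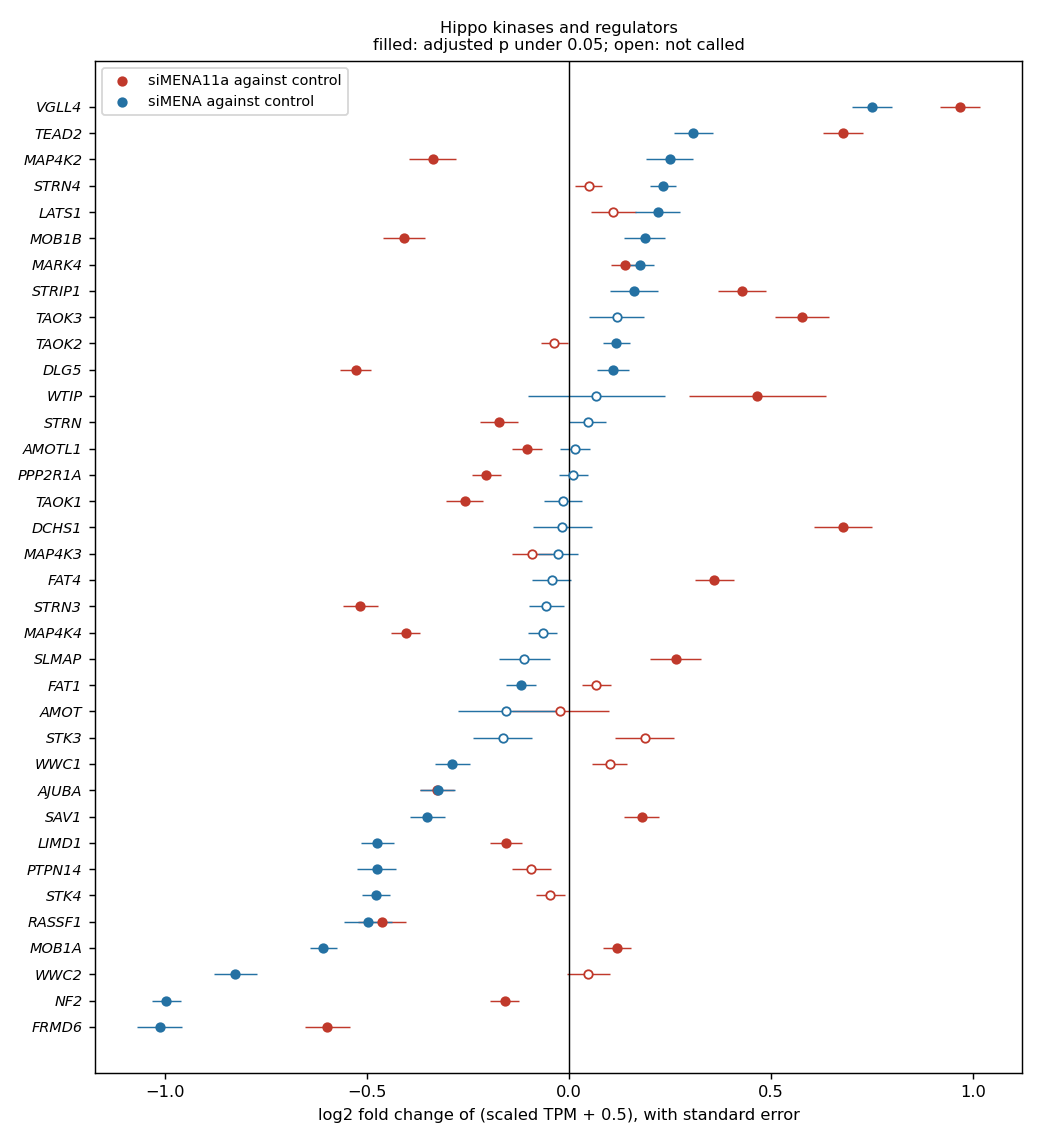
Log2 fold changes against control of the 36 tested Hippo kinases and regulators, with standard errors, ordered by the siMENA value, filled where the adjusted p is under 0.05. VGLL4 and TEAD2 lie above 0 for both siRNAs, and FRMD6 and NF2 lie lowest for siMENA.

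CYR61, CTGF and ANKRD1 are also described as targets of SRF and its actin-sensing co-activators MRTF. Of 29 other genes listed as SRF and MRTF targets 26 were tested. The list and its counts include SRF itself and the MRTF genes MKL1 and MKL2. Under siMENA11a 16 fell and 8 rose (median -0.25), or 16 and 5 in TPM as deposited, against 27.7% lower and 27.9% higher over all tested genes. Among them were MYL9 (-1.20 ± 0.044), a myosin light chain, CNN2 (-0.76 ± 0.038), a calponin, and JUNB (0.67 ± 0.044), an AP-1 subunit. The cytoplasmic actin ACTG1 (-0.64 ± 0.043) and the tropomyosin TPM1 (-0.92 ± 0.033) also fell. Under siMENA, where 25.8% of tested genes were lower and 23.7% higher, 14 fell and 8 rose (median -0.17), or 11 and 11 after rescaling without small RNAs, with TPM1 at -2.56 ± 0.033, DSTN at -0.93 ± 0.045, ACTB at -0.61 ± 0.045, ACTG1 at -0.58 ± 0.043 and ACTN1 at -0.51 ± 0.040. Without control 2 or control 3 the rises numbered 4 and 5. The largest rise of the list was that of EGR1, an immediate early gene, named after its values were seen. It was 1.39 ± 0.14 under siMENA and 1.25 ± 0.14 under siMENA11a. Between the knockdowns 11 were higher in siMENA11a and 9 lower (median -0.022, 5 higher and 14 lower in TPM as deposited), with TPM1 (1.63 ± 0.033), DSTN (0.65 ± 0.045), PDLIM7 (0.61 ± 0.040) and MKL1 (0.52 ± 0.041), an MRTF gene, higher and MYL9 (-1.31 ± 0.044) lower.

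An siRNA can lower other transcripts whose 3′ UTR matches bases 2 to 8 of its guide strand. Words of 7 bases linked to each siRNA in an earlier analysis of these same libraries were searched in GENCODE 29 3′ UTRs, so a match gives no independent support. For the exon 11a mix the words were CAAGGAA together with its neighbour CCAAGGA. For the siMENA pool they were CAGAATA with its neighbour AGAATAA, as well as CAGCGTA with its neighbour AGCGTAA. At least 1 word of the mix occurred in 26.6% of 11319 searched genes, and at least 1 word of the pool in 30.8%. These shares were not split into falls, rises and genes not called, so the counts by call below have no matching background. Among the 10 genes, TEAD1 carried CAAGGAA. WWTR1 carried both words of the first pair of the pool, and YAP1 and TEAD1 carried AGAATAA. TEAD3, TEAD4 and all 5 targets carried none of these words. Their 3′ UTRs were also shorter, the longest of each gene 195 to 1838 bases. Those of YAP1, WWTR1 and TEAD1 were 3483, 3570 and 7261 bases. Among the further targets, 10 of the 24 falls under siMENA carried a pool word, TGFB2, CCDC80, CRIM1, NT5E and THBS1 among them, as did 0 of 2 rises and 1 of 3 genes not called. AXL did not. Under siMENA11a 9 of 16 falls carried a word of the mix, NT5E, THBS1, INHBA, TGFB2 and ASAP1 among them, as did 0 of 6 rises and 5 of the 7 genes not called, a larger share than of the falls. Among the Hippo regulators 9 of 12 falls under siMENA carried a pool word, FRMD6, NF2, WWC2, MOB1A and SAV1 among them, against 1 of 10 rises and 4 of 14 genes not called. Under siMENA11a the counts were 6 of 14 falls, 3 of 11 rises and 3 of 11 genes not called. Of the tested genes of the SRF and MRTF list, 24 of 26 were searched. A pool word occurred in 4 of 13 falls and 1 of 7 rises under siMENA, and a word of the mix in 3 of 15 falls and 1 of 7 rises under siMENA11a, shares near or below those over all searched genes. The falls with a word were TPM1, DSTN, PDLIM7 and VCL under siMENA, and MYL9, TPM1 and CNN2 under siMENA11a. Several of the largest falls given above are among the carriers, in the same libraries from which the words were picked. The part of these words in the changes was not tested.

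The genes whose log2 values ran closest to a given gene over the 9 libraries were read by Pearson correlation, as a description, among genes with a mean of at least 5 scaled TPM and without clone, pseudogene, small RNA or histone symbols. With 3 groups of 3 libraries, such values mostly repeat the order of 3 group means. Closest to CYR61 were CDC6 (r = 0.995), FANCI (0.994) and ZC3H7A (0.994), with 189 of 8019 genes above 0.95. Closest to CTGF were PABPC1L (0.992), DDR1 (0.992) and DENND4A (0.989), with 159 above 0.95. Closest to YAP1 were COL4A3 (0.997), ACOT7 (0.992) and ATXN3 (0.991), with 253 of 8020 above 0.95. These correlations used scaled TPM only, and the YAP1 differences rest on that scaling, as given above.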

How the data were processed

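RNA of 9 libraries was measured as gene-level TPM. Per the labels' protocols, ribosomal RNA was removed and stranded libraries were sequenced from both ends. The authors deposited 1 TPM table, whose name points to RSEM, while kallisto and GRCh37 are listed without role or version, per the submitters' processing notes. The aligner is not given in the sources used here. Depth cannot be read from TPM, and counting error is unknown. The table held 0 value columns of other samples. Here, values were divided by median-of-ratios size factors (0.995 to 1.04 in control, 0.886 to 0.973 in siMENA11a, 1.06 to 1.09 in siMENA), since TPM moves with a few abundant RNAs. Without them the median log2 fold change was -0.11, 0.086 and -0.20 for siMENA11a and siMENA against control and between the knockdowns. The 13498 genes with a mean of at least 0.5 entered a fit of all 3 groups by limma 3.58.1 (R 4.3.3, eBayes with a mean trend), as log2 of scaled TPM plus 0.5, a scale that understates changes of low genes. Genes were called at a Benjamini-Hochberg adjusted p under 0.05 over all tested genes. Fold changes carry standard errors and levels carry SDs. The script was tested on simulated data.

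Same-numbered libraries of different groups did not deviate together, so the numbers were not used as a block. Alternatives changed the pseudocount, filter, scaling, block, fit and libraries used. The genes and lists were chosen with earlier results of these data known. All 10 genes are reported, and from each list up to 5 called genes per comparison with a mean of at least 1, by lowest adjusted p. A few further list genes, such as AREG, MYC and EGR1, were named after their values were seen.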

Additional observations from a re-analysis of the deposited data

How the results depend on the processing

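Across 570 recomputed log2 fold changes of the 10 genes (19 alternatives each), 519 kept their direction and their side of the threshold, 25 lost and 3 gained a call, and 23 changed sign. The changes of CYR61, CTGF and ANKRD1 against control, of WWTR1 in all 3 comparisons, and of TEAD1, TEAD3 and AMOTL2 under siMENA were called in every alternative run. So were the differences of CTGF and TEAD4 between the knockdowns. In TPM as deposited the sign turned for YAP1 (-0.0018) and TEAD1 (-0.13) under siMENA11a, for YAP1 under siMENA (0.019), and between the knockdowns for YAP1 (-0.021), CYR61 (-0.069), ANKRD1 (-0.21), AMOTL2 (-0.19) and LATS2 (-0.17), and for ENAH (-0.014) and MOB1A (-0.014) under siMENA11a. That setting shifts all genes by the medians given above. Rescaling without small and structured RNAs moved the median by 0.093, 0.12 and -0.037 and turned YAP1 under siMENA (0.054) and, between the knockdowns, ANKRD1 (-0.030), AMOTL2 (-0.013) and LATS2 (-0.0012). Quantile normalisation turned YAP1 under siMENA (0.038), ANKRD1 (-0.0085) and AMOTL2 (-0.026). For TEAD1 under siMENA11a the sign turned in the fit on 6 libraries (-0.00036) and without control 1 (-0.0088), siMENA11a 2 (-0.0042) or siMENA11a 3 (-0.0093), with values up to 0.033 without other libraries. Between the knockdowns it turned for ANKRD1 without siMENA11a 2 (-0.0020), siMENA11a 3 (-0.0062) or siMENA 1 (-0.019), and for LATS2 without siMENA11a 3 (-0.025), with values up to 0.035 for ANKRD1 and 0.11 for LATS2 without other libraries. The cause of these turns was not tested.

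Leaving out 1 library left 7 to 9 of the 10 genes called for siMENA11a, 7 to 8 for siMENA and 7 between the knockdowns. The replicate block gave 8, 7 and 7. Correlations of deviations between same-numbered libraries ran from -0.065 to 0.058, so the numbers are not shown to pair the libraries.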
